A study of Mus musculus with 67 samples.

Results

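Oxidative phosphorylation subunits encoded in the nucleus were followed through mouse preimplantation development in embryos that had or had not been exposed to light. They were taken as the genes of the deposited table whose symbol names a numbered complex I subunit (Ndufa, Ndufb, Ndufc, Ndufs or Ndufv), 1 of the 4 Sdh subunits of complex II, a Uqcr subunit of complex III, Cox4 to Cox8 of complex IV or Atp5 of complex V. Symbols that carry -ps were left out. This gave 85 of the 26414 genes, with 38 in complex I, 4 in complex II, 8 in complex III, 18 in complex IV and 17 in complex V. Every member had a read in at least 1 library. Of the members 81 are annotated as protein coding, and Cox6c2, Ndufa11b and Ndufs6b, which the symbols also match, as processed pseudogenes. The rule misses Ndufab1, Cyc1, Cycs, Usmg5 and Atpif1, which were read as a separate list.

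All embryos were of strain C57BL/6, from females of 6 weeks and males of 10 weeks by in vitro fertilization, and RNA was amplified by SMART-seq2, which primes on poly(A) tails. Light of 5000 lx was given for 6 h to 2-cell embryos of the light group, which then returned to dark culture, while control embryos stayed in the dark. Control libraries numbered 7 of 2-cell, 6 of 4-cell and 4 of 8-cell embryos, 13 of morulae and 3 of blastocysts. Light libraries numbered 6 of 2-cell, 8 of 4-cell and 8 of 8-cell embryos, 6 of morulae and 6 of blastocysts. According to its methods the study took embryos apart and picked single cells, whereas each label carries an embryo number. How many separate embryos, litters or culture dishes stand behind a group is not stated, so the p-values measure the spread between these libraries, which may be partly technical. A library of 1 blastocyst cell also stands for 1 lineage of that embryo.

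Oxidative phosphorylation passes electrons from NADH through complex I, or from succinate through complex II, to ubiquinone, complex III and cytochrome c, and on to oxygen at complex IV. Complexes I, III and IV pump protons out of the mitochondrial matrix, and complex V, the ATP synthase, uses their return to make ATP. Most subunits are made from nuclear genes and imported, while a small core of complexes I, III, IV and V is made inside the organelle from mitochondrial DNA, and complex II is nuclear throughout. The early embryo inherits its mitochondria from the egg and lives mainly on pyruvate and lactate until compaction. Its own genome takes over from the stored maternal RNA around the 2-cell stage.

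Values are reads on a gene divided by the size factor of the library, here called normalised reads. Between 54.0% and 89.3% of all reads lay on the ribosomal RNA genes CT010467.1 and Gm42418, which dominate the deposited size factors, and 318177 to 2867030 reads per library lay elsewhere. A change was called with limma at an adjusted p (Benjamini-Hochberg, over all genes tested) under 0.05 where the fold change also reached 2, on log2 of the value plus 1. Another scaling, by the median ratio over genes, moved the median of all genes between light and control from 0.16 to 0.03 at the 8-cell stage and from -0.64 to -0.10 in blastocysts (log2). In a single sequencing sample, fewer transcripts per cell and less RNA recovered cannot be told apart. The control 4-cell libraries were not alike. In library 3, 0.0812% of the reads outside the ribosomal RNA genes lay on complex IV, against 0.183% to 0.235% in the other 5, and 0.137% lay on complex I, against 0.247% to 0.334%. Libraries 1 and 2 had the lowest shares on complex V (0.249% and 0.262%, against 0.322% in library 3 and 0.491% to 0.612% in libraries 4 to 6) and the fewest genes with a read (10647 and 10883, against 12835 to 13370). Results that rest on library 3 are given with and without it. The ratio of Gm42418 to CT010467.1 reads, which no member enters, also moved with the light group. It was 2.34 to 4.03 in control and 1.58 to 1.77 in light 2-cell libraries, 2.01 to 2.34 and 1.52 to 1.71 in 8-cell libraries and 2.34 to 4.14 and 1.49 to 1.67 in morulae, without overlap. In 4-cell libraries (1.61 to 4.55 and 1.43 to 1.63) and blastocysts (1.42 to 1.45 and 1.29 to 1.75) the groups overlapped. The ratio also differed between control morulae (2.34 to 4.14) and control blastocysts (1.42 to 1.45), without overlap. Control 4-cell libraries 1 and 2 stood at 4.55 and 4.35, and libraries 3 to 6 at 1.61 to 1.98. Light libraries of all stages lay between 1.29 and 1.77. The part of this ratio in the light against control results and in the steps between stages was not tested. In the control blastocysts the summed level of 6 inner cell mass markers was 2394, 1207 and 148 CPM (with the ribosomal RNA genes left out of the total), and in the light blastocysts it was 57.6 to 125. The summed level of 10 trophectoderm markers was 984, 4338 and 9087 in the control and 10148 to 14461 in the light blastocysts, so the groups also differ in cell lineage.

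Promoters are shown for 4 members on which the comparisons that follow turn, each from another complex. They are Ndufs6, a complex I subunit with the largest rise between stages, Sdha, the flavoprotein of complex II, Atp5g3, which encodes the c-ring subunit of complex V, and Cox8a, a small complex IV subunit. The windows run from 250 bases before to 50 bases after the start of the gene (RefSeq, build GRCm38.p6) and lie at chr13:73328433-73328732 (- strand), chr13:74350191-74350490 (- strand), chr2:73911277-73911576 (- strand) and chr19:7217567-7217866 (- strand). Capitals mark matches, on either strand, to GCGCANGCG, the core of the NRF1 site with 1 free base, to AAGATGGCG, a YY1 site, or to CCGGAAGT, an ETS site of the kind bound by GABP. NRF1, GABP and YY1 are known regulators of nuclear genes for the respiratory chain.
Ndufs6: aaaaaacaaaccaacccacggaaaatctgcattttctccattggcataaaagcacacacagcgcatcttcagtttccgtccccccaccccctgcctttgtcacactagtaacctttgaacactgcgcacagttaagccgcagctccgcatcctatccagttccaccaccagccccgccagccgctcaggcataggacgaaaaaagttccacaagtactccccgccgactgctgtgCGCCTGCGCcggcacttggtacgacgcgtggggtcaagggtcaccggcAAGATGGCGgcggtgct
Sdha: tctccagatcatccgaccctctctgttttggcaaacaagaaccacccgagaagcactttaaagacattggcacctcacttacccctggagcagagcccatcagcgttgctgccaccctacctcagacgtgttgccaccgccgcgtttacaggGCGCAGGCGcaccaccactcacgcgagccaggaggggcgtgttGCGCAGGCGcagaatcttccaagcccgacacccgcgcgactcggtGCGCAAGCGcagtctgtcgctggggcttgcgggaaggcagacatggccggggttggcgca
Atp5g3: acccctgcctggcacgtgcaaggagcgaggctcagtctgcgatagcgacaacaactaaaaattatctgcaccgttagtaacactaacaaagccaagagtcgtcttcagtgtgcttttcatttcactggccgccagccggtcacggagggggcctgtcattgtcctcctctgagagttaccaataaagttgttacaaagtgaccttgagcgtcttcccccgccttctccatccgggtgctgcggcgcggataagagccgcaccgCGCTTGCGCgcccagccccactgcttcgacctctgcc
Cox8a: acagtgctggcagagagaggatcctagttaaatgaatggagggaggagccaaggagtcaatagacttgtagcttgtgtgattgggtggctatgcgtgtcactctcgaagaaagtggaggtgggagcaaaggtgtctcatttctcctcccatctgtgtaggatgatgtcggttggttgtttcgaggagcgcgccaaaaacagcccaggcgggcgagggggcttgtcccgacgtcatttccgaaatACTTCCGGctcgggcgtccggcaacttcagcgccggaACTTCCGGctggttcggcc
The Ndufs6 window held 1 NRF1 core and 1 YY1 site, Sdha held 3 NRF1 cores and Atp5g3 held 1. Cox8a held 2 ETS sites, both on the strand opposite to the gene's, and no NRF1 core or YY1 site. Of the 65 members with a promoter in the table, 20 (30.8%) held GCGCANGCG, against 7.03% of all 27025 promoters, a form chosen after some of the sequences had been seen. The exact GCGCATGCG stood in 8 members (12.3%, against 1.95% of all), AAGATGGCG in 7 (10.8%, against 1.64%) and CCGGAAGT in 5 (7.69%, against 4.31%). The GC box GGGCGG, which can overlap the others, stood in 26 members (40.0%) and 38.2% of all promoters. At least 1 of GCGCANGCG, CCGGAAGT and AAGATGGCG stood in 44.6% of members and 11.9% of all promoters. A match is a run of letters, and no binding was measured.

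The members took a small share of the RNA at the 2-cell stage and a larger one at every later stage. In control libraries their share of the reads outside the ribosomal RNA genes had a median of 0.249% (0.213% to 0.270%) in 2-cell, 0.975% (0.629% to 1.32%) in 4-cell and 0.667% (0.632% to 0.720%) in 8-cell embryos. Control morulae gave 1.29% (1.08% to 1.59%) and control blastocysts 1.01% (0.980% to 1.17%). In light libraries the medians were 0.379% (0.321% to 0.527%), 0.685% (0.629% to 0.754%) and 0.777% (0.712% to 1.03%) at the 2-cell, 4-cell and 8-cell stages. Light morulae gave 1.27% (1.24% to 1.39%) and light blastocysts 1.36% (1.21% to 2.27%). The control and light ranges did not overlap at the 2-cell stage or in blastocysts, where light was above control, while at the 4-cell stage light was below the control libraries other than library 3, which had the lowest control share.

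**Figure D1:**
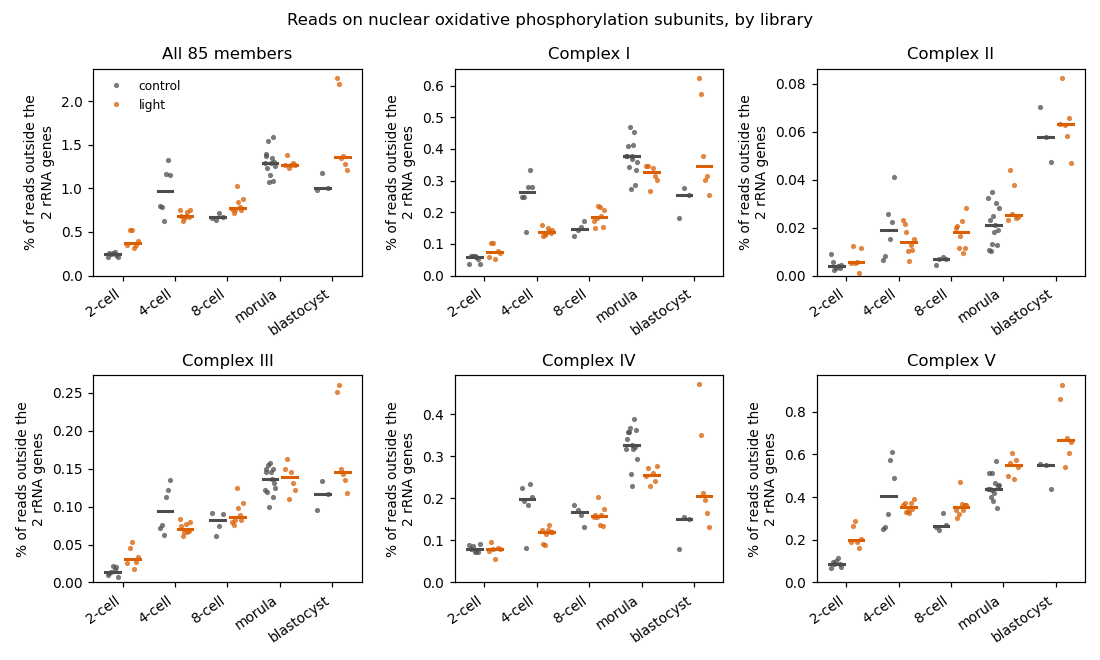
Reads on the 85 members and on each complex as % of the reads outside the 2 ribosomal RNA genes (y axis, from 0), by stage (x axis), for each control library (grey) and light library (orange). Points are libraries and bars are medians. At the 2-cell stage every light library is above every control library for complex V, and the groups overlap for complex IV.

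Levels per kilobase are reads per kilobase of the longest principal transcript (of all exons joined where none is tagged). Each library was first scaled to the same number of reads outside the ribosomal RNA genes. The levels, averaged within each group and then over the 10 groups, spread widely within each complex. The highest of each complex were Atp5b (599.9; the catalytic beta subunit of the ATP synthase), Cox8a (491), Uqcr10 (269; a small complex III subunit), Ndufa11 (143; a membrane subunit of complex I) and Sdhb (61.3; the iron-sulfur subunit of complex II). The lowest of each complex were Cox7b2 (0.270, with a read in 5 of 67 libraries), Ndufa11b (1.77), Atp5s (8.84; a coupling factor), Sdhc (10.9; a membrane anchor of complex II) and Uqcrq (55.3). Uqcrq was close to Uqcrc2 (55.9), and the ranks rest on the lengths used. On the scale of normalised reads 57 of the 85 members had their lowest control mean at the 2-cell stage. The highest control mean was in morulae for 38 members, in 4-cell embryos for 27, in blastocysts for 14 and in 2-cell embryos for 6. In the light group the highest mean was in morulae for 39, in blastocysts for 22, in 2-cell embryos for 12, in 4-cell embryos for 11 and in an 8-cell group for 1. By share of reads outside the ribosomal RNA genes the 4-cell stage was highest for 6 members in control and 0 in light. On that scale morulae were highest for 54 and 25, and blastocysts for 20 and 52. The commonest highest stage in light was thus the morula on one scale and the blastocyst on the other, so the order of the stages depends on the scale.

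The first comparison is of light with control libraries at the 2-cell stage. Of 81 members tested, 6 were called higher and 1 lower in light than in control 2-cell libraries. Of all genes tested 10.5% were called (5.53% higher, 4.96% lower), so the members were called no more often than other genes. The median log2 fold change was 0.70 over the members and 0.00 over all genes, with 64 of 81 members above 0. Complex V held 4 of the rises (of 17 tested) and complex III 2 (of 8), while none of 36 complex I and 4 complex II members was called. Complex IV held the fall (1 of 16). Every complex V share of reads in light (0.161% to 0.288%) was above every control share (0.0697% to 0.115%), while the medians for complex IV were 0.0792% and 0.0800%. The complex V share includes Atp5b and Atp5a1, both called and the members with the most reads, so it is not separate from those calls.

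Atp5a1, the alpha subunit of the catalytic head of the ATP synthase, had 72.9, 154 and 199 normalised reads (lowest, median and highest of 7) in control and 470.2, 513 and 778 in light (of 6). The groups did not overlap, and the mean rose from 145 ± 50.1 to 550.3 ± 114 (SD; log2 fold change 1.99, SE 0.30, limma adjusted p = 8.22e-05). Atp5b, its partner in the head, ran from 288 to 478 in control and from 656 to 1249 in light, again without overlap (1.26, SE 0.24, limma adjusted p = 0.000829). Atp5g3 showed the largest rise among the members called, with 1.59, 5.52 and 30.01 in control and 17.5, 37.6 and 73.8 in light. Its groups overlapped in 1 control library that reached into the light range (2.36, SE 0.69, limma adjusted p = 0.0231), and without light library 12 it was not called. Atp5f1, of the stalk that holds the head, ran from 27.0 to 237 and from 187 to 514 (1.80, SE 0.41, limma adjusted p = 0.00423).

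In complex III, Uqcrfs1, the Rieske iron-sulfur protein, had 6.25 to 117 normalised reads in control and 95.1 to 176 in light (1.78, SE 0.48, limma adjusted p = 0.0151). Uqcrc1, a core subunit, had 2.07, 20.9 and 83.6 in control and 31.2, 111 and 159 in light, with wide overlap (1.96, SE 0.62, limma adjusted p = 0.0372). It kept its call in 2 of 7 other settings and in 6 of 13 fits that left out 1 library. Cox8a went the other way. It had 242, 406 and 673 normalised reads in control and 157, 196 and 233 in light, and all light libraries were below all control libraries (-1.07, SE 0.28, limma adjusted p = 0.0124). Without control library 12 the fold change of Cox8a fell short of the call. Among the called members Atp5b, Atp5f1 and Uqcrfs1 lie outside the rule that selects members by the size of the change and were added after their values were seen.

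Other genes of the pathway at the 2-cell stage are described from lists, to be read against the 10.5% of all genes called (5.53% higher, 4.96% lower). Of 44 assembly factors 5 rose and 1 fell, among them Ndufaf7 (2.61, limma adjusted p = 0.0136), Uqcc3 (3.08, 0.0150) and Ndufaf1 (2.83, 0.0218), helpers in building complexes I and III. Of 14 regulators 4 rose and none fell, with Polrmt, the mitochondrial RNA polymerase (2.97, limma adjusted p = 0.000159), Gabpa (1.91, 0.00219) and Tfam, which packages mitochondrial DNA (3.48, 0.00646), among them. Of 16 genes of the citric acid cycle 2 rose (Ogdh 1.48, Suclg1 2.53) and 1 fell (Suclg2 -1.24). Of the 13 subunits encoded in mitochondrial DNA 5 fell and none rose, with a median of -1.05, among them mt-Nd6 (-1.89, limma adjusted p = 7.8e-05). None of the 5 subunits and partners missed by the symbol rule was called. Maternal oocyte RNA moved with the group. The summed value of 8 oocyte genes was 2072 to 4786 in control and 654 to 1772 in light, with reads on each of the 8 in both groups, and its part in the result was not tested. Of these 8 oocyte genes 3 were called lower in light (Bmp15, Ooep and Nlrp5).

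**Figure D2:**
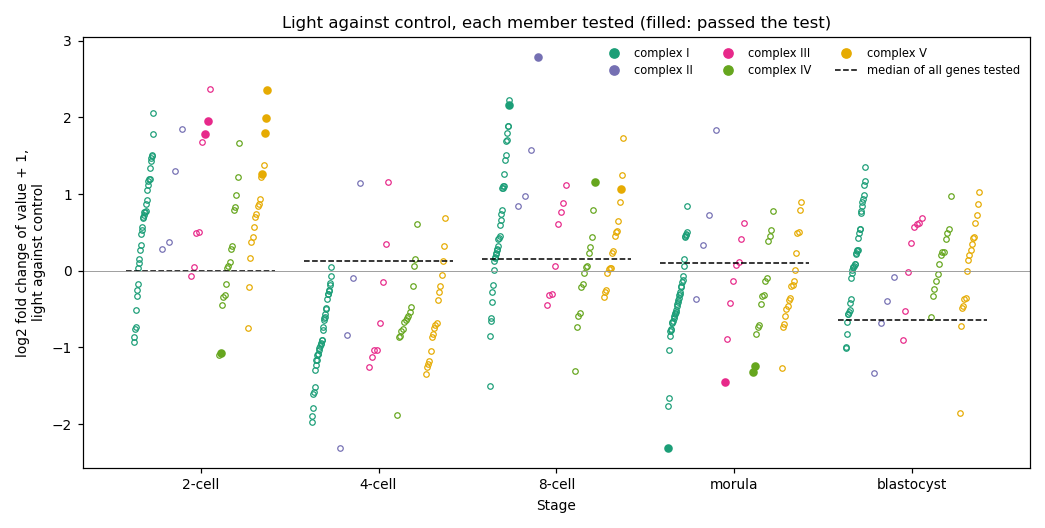
Log2 fold change of value + 1, light against control (y axis), for each member tested, by stage (x axis) and complex (colour). Filled points passed the test and dashed lines are the medians of all genes tested. At the 2-cell stage 6 members are filled above 0 and 1 below, and at the 4-cell stage most open points lie below the dashed line with none filled.

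At the 4-cell stage most members were lower in light than in control, but with all libraries no member was called. The limma fit called 0 of 81 members, with 31 at an unadjusted p under 0.05, and 1.45% of all genes (1.12% higher, 0.333% lower). The median was -0.73 over the members against 0.13 over all genes, and 10 of 81 members lay above 0. On the recovered reads edgeR called 2 members and DESeq2 20, all of them lower in light. These 2 counts were not set against the shares of all genes called by the same tools. The smallest p was that of Ndufa4, a small subunit now placed with complex IV, with 37.3, 136 and 153 normalised reads in control and 25.4, 32.5 and 69.7 in light (-1.52, SE 0.42, limma adjusted p = 0.0596). Its one low control value, 37.3, came from library 3, and the other 5 control libraries lay at 105 or above.

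Without control library 3, 21 members were called lower in light and none higher, when 5.20% of all genes were called and the members' median was -1.08. Leaving out any other of the 14 libraries gave 0 calls. Library 3 was singled out by its own low values of members, so leaving it out raises the control level by construction, and the 21 calls are a measure of how far the result rests on it and no support for a fall. Of the 21, 11 were in complex I, 3 in complex III, 3 in complex IV and 4 in complex V. Cox8a shows the dependence: it had 20.5 normalised reads in control library 3, 318 to 409.9 in the other 5 control libraries and 93.3 to 202 in the 8 light libraries. Its log2 difference was -0.67 (limma adjusted p = 0.482) with all libraries and -1.35 (limma adjusted p = 0.00529) without library 3. Atp5a1, which had risen at the 2-cell stage, was not called at the 4-cell stage with all libraries, with 252, 752 and 987 in control and 503, 799 and 1074 in light (0.32, SE 0.30, limma adjusted p = 0.616).

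Of the mitochondrially encoded subunits 4 of 13 fell at the 4-cell stage (median -1.47), among them mt-Atp6 (-2.05), mt-Cytb (-1.13) and mt-Nd4 (-1.26). The assembly factors held 1 rise of 44, Tmem70 (1.72), which serves complex V and complex I, when 1.12% of all genes were called higher. No gene of the citric acid cycle, of 12 regulators tested or of the 5 missed by the symbol rule was called.

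By the 8-cell stage 4 of 80 members were higher in light and none was lower. Of all genes 9.21% were called (5.91% higher, 3.3% lower), so the members were called no more often than other genes. The median was 0.37 over the members against 0.16 over all genes. Sdha had 1.67, 6.97, 13.8 and 23.1 normalised reads in the 4 control libraries and 40.7, 64.8 and 91.0 (lowest, median and highest of 8) in light. The groups stood well apart, and the mean rose from 11.4 ± 9.28 to 65.6 ± 17.2 (SD; log2 fold change 2.79, SE 0.50, limma adjusted p = 0.00104). The call was kept in all 6 other settings and in all 12 fits with 1 library left out. Atp5a1 was higher again, at 155, 165, 279.8 and 323 in control and 324 to 622 in light, just without overlap (1.07, SE 0.24, limma adjusted p = 0.00531). That call was kept in 2 of 6 other settings, since 3 rescalings and DESeq2 brought it under the threshold. Cox5a, a matrix-side subunit of complex IV, had 44.1, 75.1, 90.0 and 106 in control and 105 to 231 in light (1.15, SE 0.31, limma adjusted p = 0.0187), with 1 pair of libraries overlapping, and it was lost in 2 of 6 settings. Ndufa7, of complex I, had 0, 5.42, 9.58 and 30.2 in control and 18.97 to 41.9 in light (2.17, SE 0.67, limma adjusted p = 0.0400), and its call was lost in all 6 other settings.

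Of 16 citric acid cycle genes 4 rose at the 8-cell stage (25.0%), among them Sucla2 (1.49), Pdha1 (1.26) and Dlat (2.74), the last 2 of the pyruvate dehydrogenase complex. Of 44 assembly factors 4 rose (9.09%, near the share of all genes called), among them Cox18 (3.20), Uqcc1 (2.07) and Sdhaf2 (2.80), the last of which puts the flavin into Sdha. Cyc1, the cytochrome c1 of complex III that the symbol rule misses, rose too (1.91, limma adjusted p = 0.0235). None of 12 regulators was called. In contrast 9 of the 13 mitochondrially encoded subunits fell (median -1.47), among them mt-Nd1 (-1.47), mt-Nd6 (-2.14) and mt-Nd2 (-1.29). Marker lists also moved at the 8-cell stage. Of the 5 transient 2-cell genes tested 2 fell (summed level 68.8 to 375 CPM in control, 0.894 to 77.9 in light), of 6 trophectoderm markers 2 rose (214 to 438 and 179 to 669.96 CPM), and 8 oocyte genes summed to 190.2 to 302 CPM in control and 60.2 to 160.1 in light with none called. Their part in the member values was not tested. The share of reads on the 13 mitochondrially encoded subunits was 1.89% to 2.86% in control and 0.750% to 1.35% in light, without overlap.

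In morulae 4 of 81 members were lower in light and none was higher, when 1.18% of all genes were called (0.355% higher, 0.821% lower), and the median was -0.32 against 0.10 over all genes. Cox8a had 195, 385 and 851 normalised reads in 13 control morulae and 91.7, 158 and 216 in 6 light morulae, with a small overlap (-1.24, SE 0.30, limma adjusted p = 0.0313). It was the single member called lower at 2 stages with all libraries, as Atp5a1 was the single one called higher at 2. Cox6b1, which ties the dimer of complex IV together, had 89.0, 223 and 422 in control and 59.1, 93.0 and 105 in light (-1.32, SE 0.31, limma adjusted p = 0.0269). Uqcrq, which sits beside cytochrome b in complex III, had 45.7, 163 and 298 against 29.9, 57.3 and 71.9 (-1.46, SE 0.37, limma adjusted p = 0.0433). Ndufa3, a small membrane subunit of complex I, had 25.0, 56.2 and 117 against 0.787, 16.6 and 43.3 (-2.31, SE 0.58, limma adjusted p = 0.0391). These calls were close to the threshold: leaving out any of control libraries 16, 18, 23 and 26 or of light libraries 1, 3, 5, 6, 9 and 12 left 0 to 2 of them. Of the mitochondrially encoded genes 1 of 13 fell (mt-Nd6, -1.63), and no assembly factor, citric acid cycle gene or regulator was called. Inner cell mass markers moved too: all 6 lay below 0 (median -1.29) and 1 was called lower, with a summed level of 287 to 1263 CPM in control and 65.9 to 587 in light morulae, and their part in the member values was not tested.

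In blastocysts no member was called between light and control, at 0 of 78 in limma, with 4 at an unadjusted p under 0.05, and 5.34% of all genes were called (0.353% higher, 4.98% lower). edgeR called 0 members and DESeq2 5, not set against the shares of all genes these tools called. The members' median was 0.17 while that of all genes was -0.64, and after median ratio scaling these were 0.83 and -0.10, with 69 of 78 members above 0. Sdha had the smallest p, with 132, 137 and 189.6 normalised reads in control and 24.5, 67.1 and 115 in light. All 6 light libraries were below all 3 control libraries (-1.34, SE 0.46, limma adjusted p = 0.0891), but on the deposited scale only. As CPM with the ribosomal RNA genes left out, Sdha was 269, 254 and 187 in the control and 58.9 to 236 in the light blastocysts, and 4 of 6 light libraries lay within the control range. In the lists 1 of 12 mitochondrially encoded genes fell (mt-Nd5, -1.46), as did the regulator Nrf1 (-1.96), 1 of 13 regulators tested, and no assembly factor was called. Inner cell mass markers fell in the same comparison, 5 of 6, and their part in the member values was not tested.

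**Figure D3:**
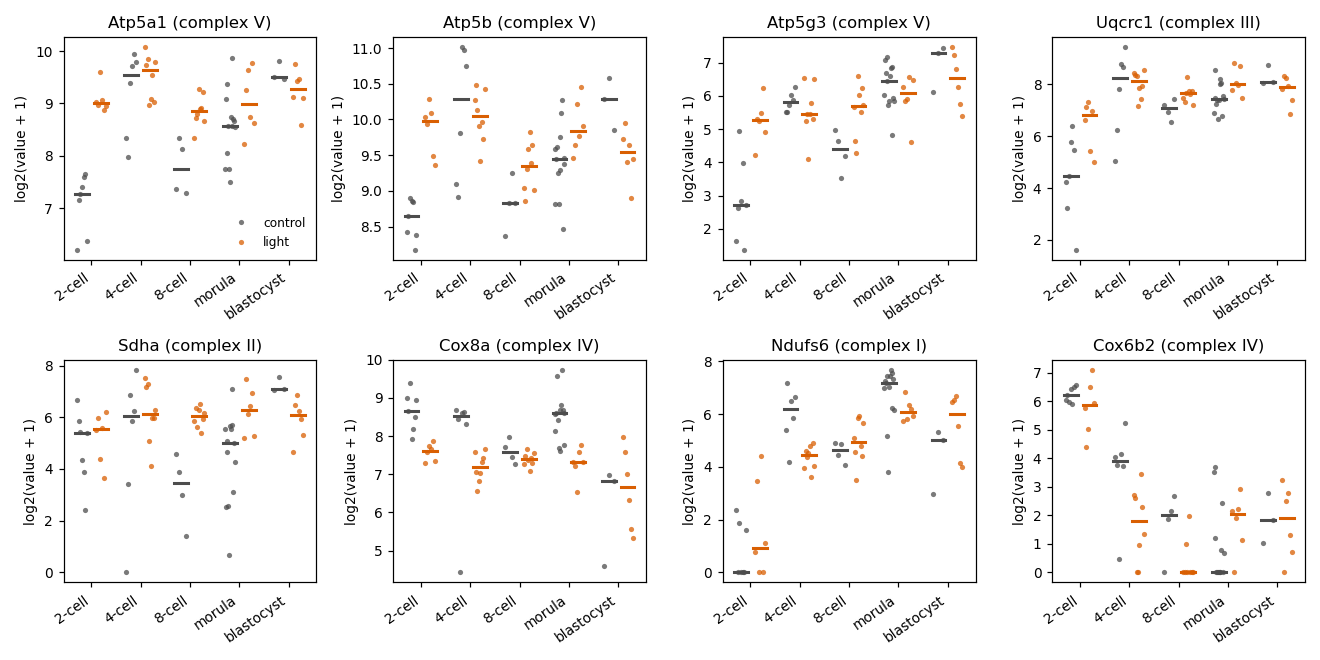
Log2 of value + 1 (y axis) of 8 members in each library, by stage (x axis), for control (grey) and light (orange), with bars at the medians. Atp5a1 and Atp5b are higher in light at the 2-cell stage without overlap, Sdha at the 8-cell stage, and Cox8a is lower in light at the 2-cell stage; control 4-cell library 3 is the low control point of Cox8a at the 4-cell stage.

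The steps between neighbouring stages ask how the level of the set changes and whether the exposed embryos follow the same course. From the 2-cell to the 4-cell stage, 60 of 84 members rose and 2 fell in control, when 46.1% of all genes were called (13.8% higher, 32.3% lower). The members' median was 2.18 and that of all genes -0.72. All 17 members of complex V rose, as did 29 of 38 in complex I, 7 of 8 in complex III and 3 of 4 in complex II, while complex IV had 4 rises and 2 falls among 17. Ndufs6, with 0 in 4 of 7 control 2-cell libraries and at most 4.16, reached 17.1, 73.2 and 145 at the 4-cell stage (5.13, SE 0.69, limma adjusted p = 3.76e-06). Ndufa3 went from 0, 0.793 and 5.22 to 9.88, 42.3 and 73.0 (4.27, SE 0.69, limma adjusted p = 3.41e-05). The groups did not overlap for either gene. Cox6b2, the testis form of the dimer-linking Cox6b, fell from 58.8, 74.0 and 93.8 to 0.380, 13.9 and 36.9 (-2.67, SE 0.62, limma adjusted p = 0.00130). Cox6a2, the heart and muscle form of Cox6a, had 0 to 8.97 at the 2-cell stage and 0 in all 6 control 4-cell libraries.

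In light the same step gave 25 rises and 3 falls among 79 members, when 36.5% of all genes were called (7.43% higher, 29% lower), and all 25 rises were among the 60 of control (41.7% of those). The median was 0.79 over members and -0.56 over all genes. Complex V had 5 rises of 17, complex I 12 of 36 and complex III 4 of 8. Ndufs5, of the intermembrane side of complex I, went from 0, 1.89 and 5.37 to 17.2, 30.2 and 56.5 (3.54, SE 0.59, limma adjusted p = 2.26e-05), and 46.9% of its transcript has a near-identical copy in BC002163. Ndufs6 went from 0, 0.917 and 20.0 to 11.2, 20.9 and 28.6 (2.73, SE 0.70, limma adjusted p = 0.00253). Cox6b2 fell here too, from 19.8, 57.0 and 136 to 0, 2.70 and 9.89 (-4.11, SE 0.67, limma adjusted p = 1.65e-05), and Cox7b from 9.81, 37.1 and 85.5 to 0, 5.04 and 12.9 (-2.76, SE 0.67, limma adjusted p = 0.00170). The mitochondrially encoded genes did not rise in this step: 0 of 13 were called in control and 3 fell in light.

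Whether the step differs between the groups was tested by the interaction, which equals the light effect at the 4-cell stage minus that at the 2-cell stage. It called 4 of 84 members, all in the direction of a smaller rise in light, when 3.07% of all genes were called (1.63% higher, 1.45% lower), and the members' median was -1.41 against 0.09. Those with the smallest p were Atp5a1 (-1.67, SE 0.43, limma adjusted p = 0.0274), Ndufv2, which carries an iron-sulfur cluster in complex I (-2.28, SE 0.63, limma adjusted p = 0.0362), and Atp5g3 (-2.63, SE 0.73, limma adjusted p = 0.0378). Without control library 3 of the 4-cell stage the count was 14, again all lower, with the reservation given for that library. It was not set against the share of all genes called in that fit. The comparisons share the same libraries, so the higher 2-cell values and the smaller step in light are not independent of each other.

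**Figure D4:**
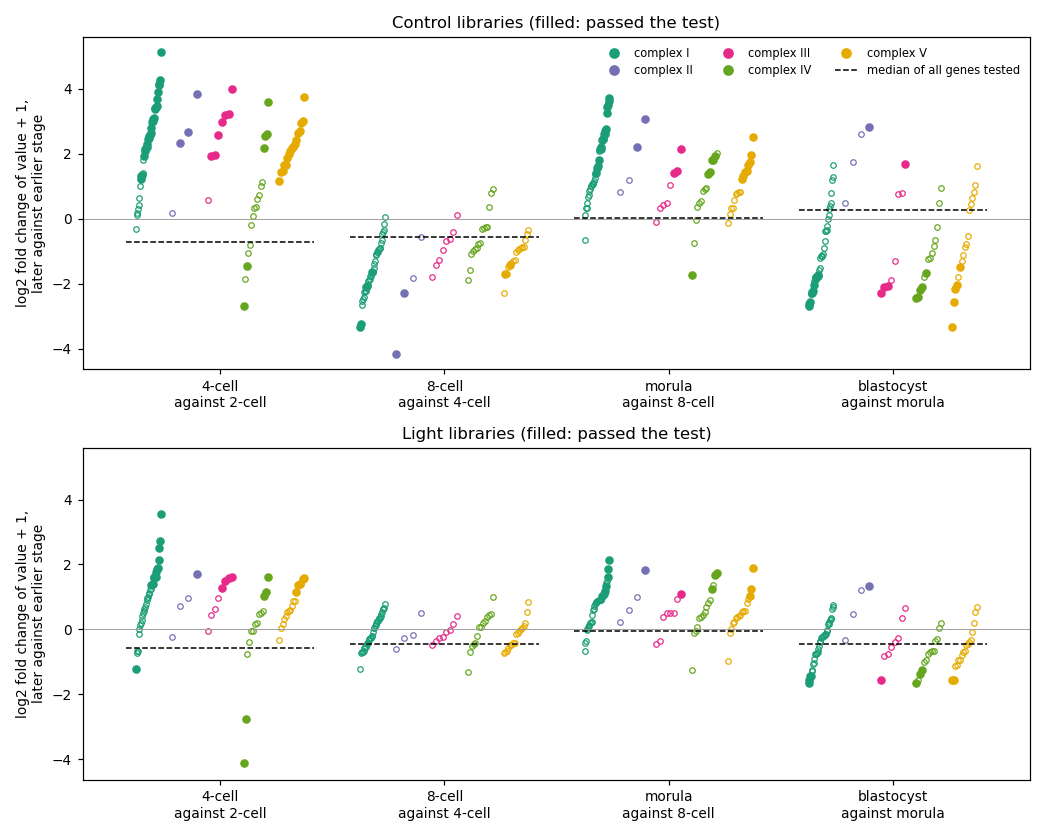
Log2 fold change of value + 1 between neighbouring stages (y axis), for each member tested, in control libraries (top) and light libraries (bottom), by step (x axis) and complex (colour, as in the legend). Filled points passed the test and dashed lines are the medians of all genes tested. In the first step 60 members are filled above 0 in control and 25 in light.

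From the 4-cell to the 8-cell stage 9 of 82 members fell in control and none rose, when 6.31% of all genes were called (1.14% higher, 5.17% lower), and the median was -1.07 against -0.56 over all genes. This depended on scaling, since 1 fall was called after median ratio scaling, with a median of -0.30, and 0 by edgeR. It also moved with single libraries: the count was 18 without control 4-cell library 3, 14 without library 1 and 1 to 3 without any of libraries 4 to 6, and 2 to 5 without 8-cell library 1, 3 or 4. These counts were not set against the share of all genes called in the same fits. Sdhc had 10.6, 31.7 and 64.2 normalised reads in 4-cell and 0, 0, 1.85 and 2.66 in 8-cell embryos (-4.16, SE 0.96, limma adjusted p = 0.0114). Ndufa7 went from 27.7, 70.9 and 152 to 0, 5.42, 9.58 and 30.2 (-3.32, SE 0.83, limma adjusted p = 0.0185). The Sdhc groups did not overlap and those of Ndufa7 did. In light 0 of 79 members were called in this step by limma, with 12 at an unadjusted p under 0.05, when 10.6% of all genes were called (0.619% higher, 9.94% lower). edgeR called 1. Atp5b (-0.71, limma adjusted p = 0.00596) and Atp5f1 (-0.74, limma adjusted p = 0.0124) passed on p and not on fold.

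The interaction of this step called 4 of 82 members, all with a light effect that was more positive at the 8-cell than at the 4-cell stage, when 3.8% of all genes were called (1.7% higher, 2.11% lower). The smallest p were those of Ndufa7 (3.07, SE 0.78, limma adjusted p = 0.0176), Cox5a (2.00, SE 0.54, limma adjusted p = 0.0269) and Ndufs5 (2.53, SE 0.71, limma adjusted p = 0.0355). Sdhc was the fourth (3.89, SE 1.10), and its light 8-cell libraries held 0.951, 4.96 and 10.1 normalised reads. Without control 4-cell library 3 the count was 17, all positive, with the same reservation, and it was not set against all genes either.

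From the 8-cell stage to the morula 37 of 82 members rose and 1 fell in control, when 14.3% of all genes were called (6.84% higher, 7.49% lower), and the median was 1.25 against 0.04. Complex I had 19 rises of 38, complex V 8 of 17, complex IV 5 of 15, complex III 3 of 8 and complex II 2 of 4. Ndufa7 went to 21.3, 97.9 and 236 in morulae (3.73, SE 0.62, limma adjusted p = 0.000147). Ndufa8, an intermembrane subunit of complex I, went from 0, 0, 8.76 and 10.2 to 5.60, 43.3 and 87.1 (3.63, SE 0.72, limma adjusted p = 0.000886). The fall was that of Cox4i2, the form of Cox4 linked to low oxygen and to lung, from 0.834, 0.926, 4.79 and 6.97 to 0 in 12 of 13 morulae (-1.74, SE 0.43, limma adjusted p = 0.00583). In light 15 of 80 members rose and none fell, when 11.8% of all genes were called (4.61% higher, 7.22% lower), with a median of 0.60 against -0.05. Without light 8-cell library 8 or 11 or light morula library 6 there were 8 or 9 calls. Of the 15 rises 12 were also among the 37 of control, or 80.0% of the light list and 32.4% of the control list. Ndufc2, a membrane subunit of complex I, went from 0, 10.2 and 24.9 to 19.7, 35.2 and 58.3 (2.12, SE 0.64, limma adjusted p = 0.0267), with overlap, and was lost in 4 of 5 other settings. Atp5d, the delta subunit of the rotor, went from 33.3, 69.6 and 81.8 to 155, 244 and 297 without overlap (1.90, SE 0.27, limma adjusted p = 2.75e-05). The interaction called 3 of 83 members, all with a light effect that was less positive in morulae, when 2.62% of all genes were called (1.2% higher, 1.42% lower): Ndufa7 (-2.95, SE 0.72, limma adjusted p = 0.0134), Ndufa3 (-3.11, SE 0.86, limma adjusted p = 0.0370) and Ndufb8 (-2.35, SE 0.68, limma adjusted p = 0.0478).

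Between morula and blastocyst 24 of 80 members fell and 2 rose in control, when 11.9% of all genes were called (6.75% higher, 5.11% lower), and the median was -1.13 against 0.28. Without control blastocyst 1 the count of calls was 8. Atp5k, the e subunit that links ATP synthase dimers, went from 48.2, 103 and 243 to 3.68, 10.9 and 19.8 (-3.31, SE 0.51, limma adjusted p = 7.61e-05). Ndufs5 went from 37.8, 102 and 209.5 to 3.68, 24.4 and 25.4 (-2.69, SE 0.56, limma adjusted p = 0.00180), and without control blastocyst 1 it was not called. Neither gene's groups overlapped. The rises were those of Sdha, from 0.610, 30.8 and 134 to 132, 137 and 189.6 (2.83, SE 0.92, limma adjusted p = 0.0443), and of Uqcrc2, a core subunit of complex III, from 18.9, 37.4 and 117 to 100.5, 169.5 and 191 (1.68, SE 0.54, limma adjusted p = 0.0425). Both overlapped, and of 16 fits that left out 1 library Sdha kept its call in 9 and Uqcrc2 in 7. The control blastocysts differ in lineage markers, as given above.

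In light the step to the blastocyst gave 10 falls and 1 rise among 80 members, when 20.7% of all genes were called (5.02% higher, 15.7% lower), with a median of -0.46 against -0.45 over all genes. The direction turned with the scaling: median ratio scaling gave 10 rises and 0 falls, and edgeR 11 rises and 0 falls. Neither count was set against the share of all genes called in the same fit. Without light blastocyst library 24 there were 7 calls on the deposited scale. On the deposited scale Cox6c, of complex IV, went from 154, 192 and 328 to 21.8, 67.0 and 161 (-1.65, SE 0.40, limma adjusted p = 0.00322), and Ndufa12, a complex I subunit, from 88.1, 114 and 157 to 11.8, 45.3 and 69.5 (-1.64, SE 0.41, limma adjusted p = 0.00397). Neither was called lower under median ratio scaling or in edgeR. Sdhc rose from 8.85, 20.0 and 36.5 to 26.1, 47.9 and 96.3 (1.34, SE 0.46, limma adjusted p = 0.0327), and that call was kept in all 4 other settings and in 6 of 12 fits that left out 1 library. The interaction called 0 of 81 members in limma, with 16 at an unadjusted p under 0.05, when 1.57% of all genes were called (0.119% higher, 1.45% lower), and 8 higher after median ratio scaling and 5 higher in edgeR.

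Forms of the same subunit were compared by their shares. Shares are of the summed level per kilobase of the forms. Cox6b2 made up 70.6% ± 11.9 (SD, n = 7) of Cox6b in control 2-cell libraries and 51.0% ± 25.3 (n = 6) in light ones, and at the 4-cell stage 8.7% ± 6.2 (n = 6) and 4.2% ± 4.0 (n = 8). Later means lay between 0.6% and 5.2%. The fall of Cox6b2 was called in both groups while Cox6b1 rose in control (2.18, limma adjusted p = 0.0007). Within Atp5g, whose 3 genes encode the same mature c-ring protein behind different import signals, Atp5g1 fell from 63.8% ± 13.2 of the sum in control 2-cell libraries to 9.2% ± 1.6 in control blastocysts. Light gave 45.4% ± 8.9 and 10.4% ± 3.7. Atp5g3 rose from 16.8% ± 12.3 to 66.4% ± 4.3 in control and went from 42.6% ± 12.3 to 45.9% ± 11.0 in light. Annotated Atp5g1 transcripts are 596 to 4715 bases long, and with the shortest in place of the longest principal transcript Atp5g1 made up 90.5% at the control 2-cell stage and 40.2% in control blastocysts, where it was then still the largest form (Atp5g3 37.4%). The direction over the stages was the same, and the size of the shares rests on the length used.

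**Figure D5:**
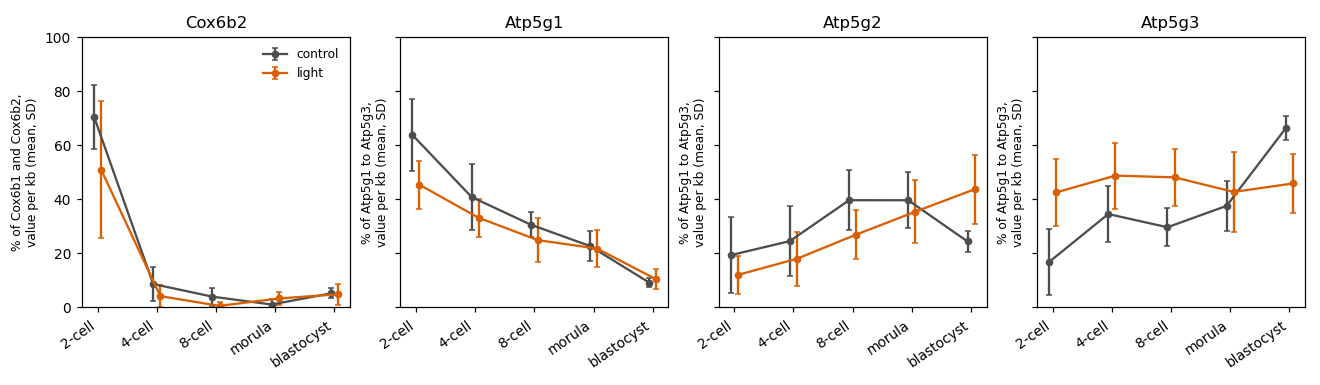
Share of a form in the summed level per kilobase of its forms (y axis, %, mean with SD over libraries), by stage (x axis), in control (grey) and light (orange), from the longest principal transcript of each gene. Cox6b2 drops after the 2-cell stage in both groups, and Atp5g1 declines to about 10% in blastocysts.

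In the other pairs 1 form held nearly all of the level. Cox4i1 made up 96.0% or more on average in each group, Cox6a1 92.8% or more, Cox7a2 92.4% or more and Cox7b 90.4% or more, and Cox8a 99.2% or more against Cox8c. Cox6a2 made up 7.2% ± 8.3 in control 2-cell libraries and 0.4% ± 0.7 in light ones, and was at 0 in both groups at the 4-cell and 8-cell stages. Cox7b2, at 4.3% ± 9.0 in light 2-cell and 9.6% ± 21.5 in control 4-cell libraries, rests on 21 reads in all. Cox8b and Ndufa4l2 are not among the rows used here.

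Complex II is the link between the citric acid cycle and the chain, and its 4 genes are given one by one. Sdha ran from a control mean of 10.4 per kilobase at the 2-cell stage to 81.7 in blastocysts, and in light from 12.2 to 58.9. Sdhb, with 6.32 and 13.0 in control and light at the 2-cell stage, reached 118 and 167 in blastocysts. Sdhd, the other membrane anchor, went from 0.827 and 8.25 to 109.9 and 114, and Sdhc from 2.17 and 2.47 to 24.7 and 41.3. Between light and control the single called difference among the 20 tests of the 4 genes was that of Sdha at the 8-cell stage. In the same libraries Sdhb differed by 0.85 (SE 0.66, limma adjusted p = 0.447), Sdhc by 1.57 (SE 0.77, limma adjusted p = 0.201) and Sdhd by 0.97 (SE 0.79, limma adjusted p = 0.468). All 4 differences were above 0 there, and whether the 4 genes differ from each other was not tested. At the 4-cell stage Sdhc differed by -2.31 (SE 0.76, limma adjusted p = 0.113), with 10.6 to 64.2 normalised reads in control and 0 to 22.0 in light. In morulae Sdha had 0.610, 30.8 and 134 in control and 35.8, 77.3 and 179.5 in light, a difference of 1.83 (SE 0.67, limma adjusted p = 0.166).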

How the data were processed

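Single-cell SMART-seq2 libraries of control and light embryos at 5 stages were used, 67 in all. The authors aligned reads with HISAT2 and counted them with HTSeq 0.9.1, and the submitters' notes name build mm9. The deposited values are a normalised signal, namely each gene's reads over a library size factor, and not the RPKM that the study's methods mention. Dividing by the smallest step gave whole reads, within 0.01 of a read, for at least 99.95% of the values in each library, and 836011 to 8551674 reads per library.

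The deposited signal was tested as log2(value + 1) with limma 3.58.1 (lmFit and eBayes with trend, R 4.3.3). Genes with a value over 1 in at least 3 of the libraries compared were kept, and p-values were adjusted by Benjamini-Hochberg over all genes tested. Light was compared with control at each stage, neighbouring stages within each group, and the light effect between neighbouring stages. Alternatives were another pseudocount, no filter, median ratio scaling, quantile normalization, edgeR 4.0.16 and DESeq2 1.42.0 on the recovered reads, the replicate number as a block, and leaving out each library. The fits were also run on simulated data, with independent libraries and the same spread setting for all genes. That run checks the code and not the calls in these data.

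Lengths and gene types came from GENCODE M21 and promoters from RefSeq (GRCm38.p6, of which 65 of 85 members matched), so no coordinate is from mm9. By blastn 2.17.0, the longest annotated transcript of 21 of 85 members has a stretch of at least 150 bases with at least 97% identity in another gene. In 2 of these (Ndufs3 and Ndufs6b) it covers most of the length. Shorter transcripts were not counted: Ndufs6b matches Ndufs6, whose own longest transcript gave no match. Reads on such stretches could be split between the genes. Members and lists were chosen with earlier results of these data known. Named were all members called between light and control where 6 or fewer were, otherwise the 3 largest rises and falls, and the smallest p where none was called. Also named were the 2 largest called rises and falls per step, up to 3 with the smallest p per interaction, the highest and lowest level per complex, the isoform pairs, the Sdh genes, members called at 2 stages and up to 3 called genes per list. Others were chosen after their values were seen, as were the members described without control 4-cell library 3 and the shortest-transcript shares. The citric acid cycle list is not reported here for blastocysts.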

Additional observations from a re-analysis of the deposited data

Results flagged for a closer look

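Among 74 sets of values with 4 to 10 libraries, 4 held a library far from the others of its group by Dixon's test. Chance gives about 5%, so the count is near that of chance. The sets are not independent, since the share on all members contains the shares on each complex. Control 4-cell library 3 had 0.0812% of its reads outside the ribosomal RNA genes on complex IV, and the others of its group had 0.183% to 0.235%. Light 8-cell library 5 had 0.470% on complex V, against 0.304% to 0.370% in the others. Light morula library 1 had 1.39% on all members, against 1.24% to 1.29%. Light 2-cell library 14 had 778 normalised reads of Atp5a1, against 470.2 to 537.

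The light effect differed between neighbouring stages, by the limma interaction, in 11 tests of members. In the same interactions 3.07% (4-cell minus 2-cell), 3.8% (8-cell minus 4-cell) and 2.62% (morula minus 8-cell) of all genes tested were called. The member counts are not far above those shares, and they changed with the scaling and with single libraries. Between the 2-cell and the 4-cell stage the light effect became less positive for Atp5g3 (-2.63), Ndufv2 (-2.28), Atp5a1 (-1.67) and Atp5j2 (-2.40), on the log2 scale. Between the 4-cell and the 8-cell stage it became more positive for Cox5a (2.00), Ndufs5 (2.53), Ndufa7 (3.07) and Sdhc (3.89). Between the 8-cell stage and the morula it became less positive for Ndufb8 (-2.35), Ndufa3 (-3.11) and Ndufa7 (-2.95). The first 2 of these comparisons share the 4-cell libraries and the last 2 the 8-cell libraries, so the opposite signs are not independent.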

How the results depend on the processing

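Counts of called members stayed within 1.5 times in 50 of 87 fits with another setting and in 233 of 291 fits that left out 1 library, and the cause of the changes was not tested. The counts in this section are of members only and were not set against the share of all genes called in the same fits. Median ratio scaling gave 1 call each between light and control in 4-cell embryos, 8-cell embryos and blastocysts, 1 from the 4-cell to the 8-cell stage in control and 2 in light, 24 from the 8-cell stage to the morula in light, and for the change of the light effect 1 (morula minus 8-cell) and 8 (blastocyst minus morula). In light blastocysts against morulae it reversed the direction, with 10 calls, as did edgeR with 11. edgeR gave 2 calls in 4-cell and 2 in 8-cell embryos between light and control, 0 and 1 from the 4-cell to the 8-cell stage in control and light, and for the 4 changes of the light effect 10, 1, 1 and 5. Quantile normalization gave 1, 2 and 2 in 4-cell embryos, 8-cell embryos and blastocysts, and DESeq2 11, 20 and 5 in 2-cell embryos, 4-cell embryos and blastocysts. Without a filter morulae gave 2 and the control step from the 4-cell to the 8-cell stage 2. A pseudocount of 0.1 gave 5 in that step, 9 from the 8-cell stage to the morula in light, and 1 each for the light effect 4-cell minus 2-cell and morula minus 8-cell.

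Leaving out 1 library gave 5 to 8, 0 to 21, 3 to 5, 0 to 4 and 0 to 1 calls between light and control in the 5 stages in order. For the steps it gave 52 to 63, 1 to 18, 26 to 40 and 8 to 30 in control, and 21 to 30, 0, 8 to 17 and 7 to 14 in light. For the changes of the light effect it gave 0 to 14, 1 to 17, 1 to 5 and 0. Replicate numbers did not pair the libraries: over 29 pairs the correlation of deviations ran from -0.0873 to 0.0695, and the own number was best in 5. With the number as a replicate block 0 members were called between light and control at the 2-cell stage and in morulae, 0 in each control step it could be fitted to, 0 from the 2-cell to the 4-cell stage in light and 1 from the 8-cell stage to the morula in light. In these fits the difference rests on the libraries whose number both groups share. Depth limits the low members most, such as Cox7b2 with 21 reads in all.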
